A study of Homo sapiens with 3 samples.

Results

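XPB and XPD are the helicase subunits of TFIIH, a factor with a role in transcription, where it melts promoter DNA, and in nucleotide excision repair, where it unwinds DNA around a lesion. XPB belongs to the core of TFIIH and works as a DNA translocase in promoter opening. XPD links that core to the kinase module, and its own helicase activity is needed for repair; XPD has also been described in complexes outside the TFIIH core. The regions described here are the places where the deposited peak list of the XPD ChIP holds a strong peak and the list of the XPB ChIP holds none. They were chosen by the XPD peak score and by overlap, as XPD peaks with a score of at least 300 whose interval shares no base with any XPB interval, and are called strong XPD-only peaks below. There were 223 of them among 14570 XPD peaks and among 36125 peaks of both lists.

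The study mapped both helicases by chromatin immunoprecipitation and sequencing (ChIP-seq) in HT1080, an established human fibrosarcoma cell line, with no treatment or genetic change named in the labels. It had 1 library with a rabbit polyclonal antibody against XPB, 1 with a rabbit polyclonal antibody against XPD, and 1 input library without enrichment, all from a single pool of crosslinked chromatin. The samples' common protocol describes an antibody to CSB, another repair protein; the groups here follow the antibody field of each sample. Sequencing depth is unknown from the peak lists, and no values of the input were used.

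The score of a peak is the value given by the authors' peak caller, MACS, which by its usual layout is -10 times the log10 of a p-value. The summit height is the number of fragments piled up at the highest base of the peak, not scaled to depth. Both describe peaks within 1 list only. Each antibody had a single library, so differences between the sets are described with intervals and without p-values. Intervals in parentheses are exact 95% binomial intervals, Clopper-Pearson for shares and order statistics for medians. For a difference of medians, the opposite ends of both median intervals were subtracted. That range is wider than a 95% interval of the difference. All intervals cover counting error and the spread over peaks, not the difference between libraries.

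In the whole XPD list 8931 peaks, 61.3%, had no XPB peak over them. At scores of at least 300 the 223 strong XPD-only peaks made up 12.9% of 1730 (11.3 to 14.6). Both values follow from how the peaks were chosen and are given as a description. The share fell steadily as the score rose. It was 77.6% (76.5 to 78.6) of 5852 peaks at scores of 150 to under 175, and 32.2% (28.0 to 36.6) of 466 at 275 to under 300. Above the threshold it was 28.9% (24.1 to 34.0) of 336 peaks at 300 to under 325, 18.2% (14.0 to 23.1) of 291 at 325 to under 350, and 8.33% (5.01 to 12.9) of 216 at 400 to under 450. The threshold of 300 therefore lay on a slope without a step. At 450 to under 500 there were 4 XPD-only peaks among 126, and at 500 to under 600 there was 1 among 160. The 264 XPD peaks that scored above the highest XPD-only peak all overlapped an XPB peak.

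**Figure D1:**
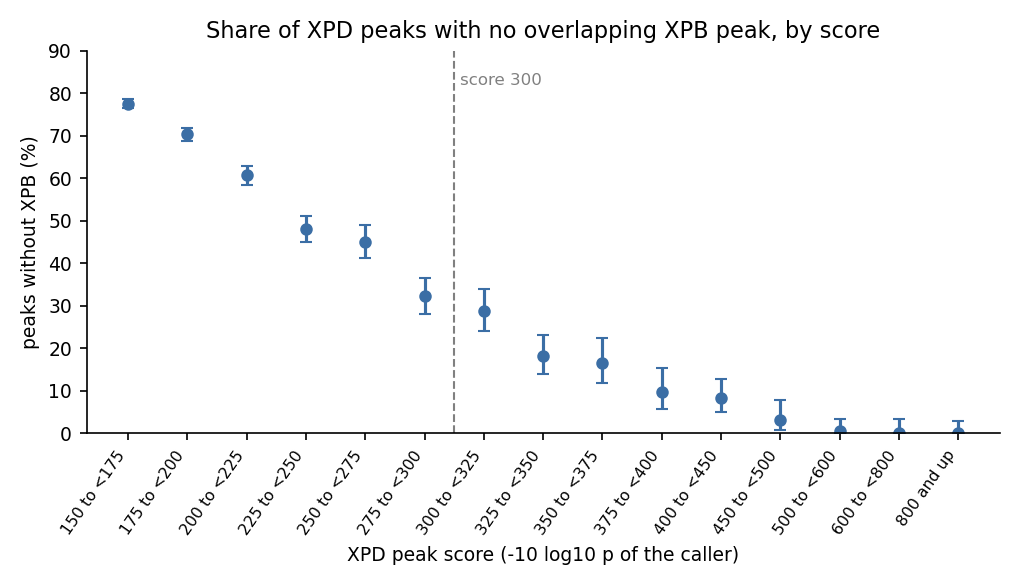
Percentage of XPD peaks with no overlapping XPB peak in bins of the XPD peak score, with exact 95% intervals. The share runs from 77.6% at scores of 150 to under 175 down to 0 of 108 at 600 to under 800, and the dashed line marks the score of 300 from which peaks were counted as strong.

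Most strong XPD-only peaks stood close above the threshold. Their median score was 330.3, with an interquartile range of 312 to 360.2 and a highest value of 573. Scores from 300 to under 325 were held by 97 of them, 325 to under 350 by 53, 350 to under 400 by 50, and 400 or more by 23. The comparison set was the 1243 XPD peaks of the same score range, 300 to 573, that did overlap an XPB peak, called shared peaks below. Their median score was 370.1, higher than that of the XPD-only peaks, so comparisons were repeated at scores of 300 to under 350, where 150 XPD-only and 477 shared peaks had medians of 317.5 and 324.6.

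The strong XPD-only peaks were lower at the summit than shared peaks. Their heights ran from 8 to 46 fragments with a median of 14 (13 to 14), and the quartiles lay at 12 and 16. Shared peaks ran from 9 to 775 fragments with a median of 17 (17 to 18) and quartiles of 14 and 22. The ranges overlapped, but the upper quartile of the XPD-only peaks lay below the median of the shared peaks. A summit of at least 20 fragments was reached by 20 of 223 XPD-only peaks, 8.97% (5.56 to 13.5), and by 460 of 1243 shared peaks, 37.0% (34.3 to 39.8). A summit of at most 12 fragments was found in 28.7% (22.9 to 35.1) of the XPD-only and 10.3% (8.66 to 12.1) of the shared peaks. At scores of 300 to under 350 the medians were 14 (13 to 14) and 16 (15 to 16) fragments, a difference of 2 fragments in place of 3.

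They were also wider in the median, though not in every score bin. The median width was 1443 bp (1376 to 1524) for XPD-only and 1307 bp (1265 to 1355) for shared peaks, although a wider peak has more room to meet the overlap rule. At scores of 300 to under 350 the medians were 1398 bp (1330 to 1499) and 1208 bp (1160 to 1263). Weighting the shared peaks to the same score bins gave 1234 bp. The order was not the same at every score. At 375 to under 400 the medians were 1282.5 bp over 16 XPD-only and 1355 bp over 149 shared peaks. At 425 to under 450 they were 1286.5 bp over 6 and 1385 bp over 87. In every other score bin of 25 that held an XPD-only peak, the XPD-only median was the larger. At 400 to under 425 it was 1629.5 bp over 12, against 1520 bp over 111 shared peaks. The bins from 450 up that held any XPD-only peak had only 1 or 2. At 350 and above the difference was 158 bp. Its wide interval, from the ends of both median intervals, was -28 to 381 bp and includes 0. The gap was largest at the narrow end, with lower quartiles of 1192 and 983 bp and upper quartiles of 1733 and 1675 bp. Widths under 1000 bp made up 13.5% (9.26 to 18.6) of XPD-only and 25.99% (23.6 to 28.5) of shared peaks, whereas widths of 2000 bp or more made up 8.52% (5.21 to 12.99) and 11.8% (10.1 to 13.8). XPD-only peaks with lower scores were narrower, with a median of 877.5 bp (869 to 886) over 8708 peaks.

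**Figure D2:**
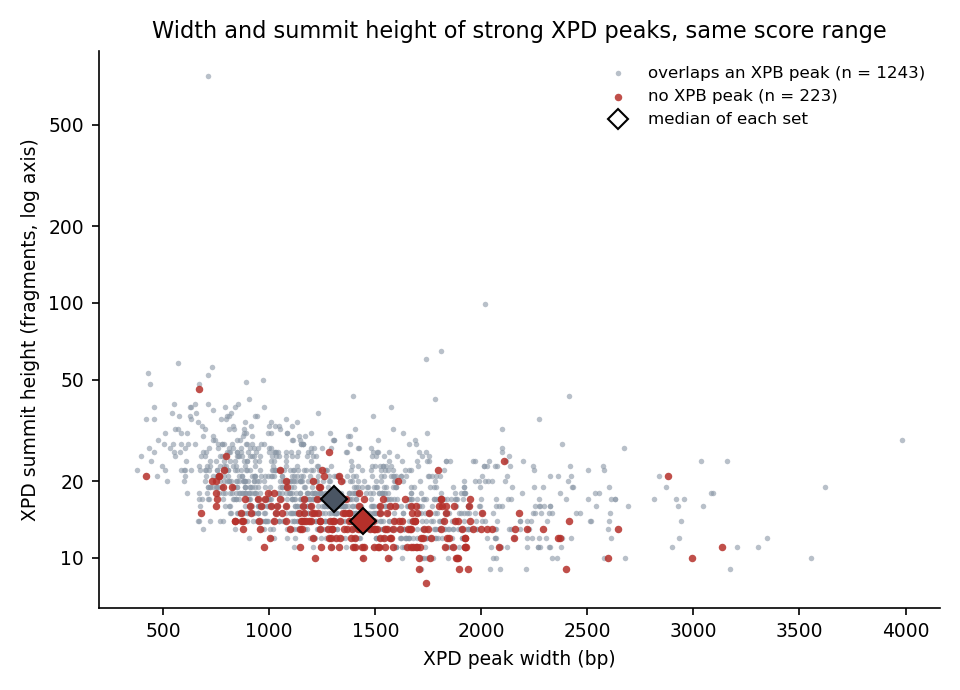
Width in bp against summit height in fragments (log axis) for XPD peaks with scores of 300 to 573; red points have no XPB peak, grey points overlap one, and diamonds mark the median of each set. The red median lies at 1443 bp and 14 fragments and the grey at 1307 bp and 17 fragments, and few red points exceed 20 fragments.

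Height separated the sets more than width did. Among all XPD peaks of this score range, 42.9% (26.3 to 60.6) of the 35 with fewer than 11 fragments had no XPB peak, 27.1% (21.8 to 32.8) of the 266 with 13 or 14, 8.66% (5.63 to 12.6) of the 277 with 17 to 19, and 1.402% (0.290 to 4.04) of the 214 with 25 or more. By width the share was 6.93% (2.83 to 13.8) of the 101 peaks under 750 bp and 23.7% (17.2 to 31.3) of the 152 at 1750 to under 2000 bp, and it was 11.4% (7.03 to 17.3) of the 166 at 2000 bp or more. The broadest peaks thus did not carry the trend on. When peaks were split at the medians of both measures, 1337 bp and 17 fragments, low peaks had similar shares whether wide, 24.4% (20.8 to 28.3) of 524, or narrow, 22.2% (17.6 to 27.4) of 297. Tall peaks had small shares whether wide, 2.40% (0.785 to 5.52) of 208, or narrow, 5.49% (3.55 to 8.06) of 437.

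**Figure D3:**
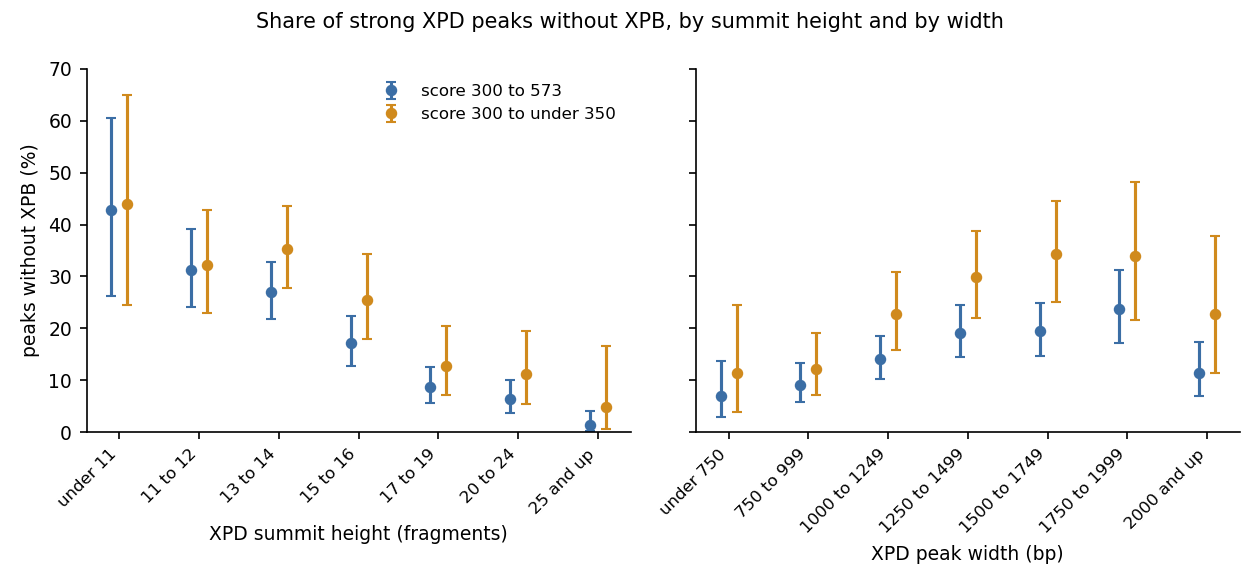
Percentage of strong XPD peaks with no XPB peak by summit height (left, fragments) and by width (right, bp), with exact 95% intervals, for scores of 300 to 573 (blue) and of 300 to under 350 (orange). The blue share falls from 42.9% under 11 fragments to 1.402% at 25 or more, and rises with width up to 23.7% at 1750 to under 2000 bp.

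Within the strong XPD-only peaks, width and height went opposite ways. Spearman's rho between them was -0.43 across 223 peaks, and -0.43 across the 1243 shared peaks as well. All points come from 1 library and share a score floor. The score itself was weakly related to width (rho 0.10) and height (0.13) in the XPD-only peaks, and somewhat more in the shared peaks (0.19 and 0.30). The 30 XPD-only peaks under 1000 bp had a median of 17 fragments, the 91 at 1000 to under 1500 bp had 14, and the 19 at 2000 bp or more had 13.

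The summits of XPD-only peaks lay nearer to an edge of the peak. The distance from the summit to the nearer edge was a median of 29.0% of the width (26.2 to 30.5), where 50% would be the exact middle. In shared peaks it was 33.6% (33.1 to 34.5), and in XPD-only peaks under a score of 300 it was 33.4% (33.1 to 33.8). A summit in the outer 20% at either end was found in 49 of 223 strong XPD-only peaks, 21.97% (16.7 to 28.0), and in 192 of 1243 shared peaks, 15.4% (13.5 to 17.6). At scores of 300 to under 350 the shares were 21.3% (15.1 to 28.8) and 16.6% (13.3 to 20.2). The intervals of these shares overlap in both ranges. Within the XPD-only peaks the distance to the nearer edge fell with width up to 2000 bp. Its median was 34.7% for the 30 under 1000 bp and 29.5% for the 91 at 1000 to under 1500 bp. For the 83 at 1500 to under 2000 bp it was 25.6%. The XPD-only peaks were also the wider set, and whether the offset holds at equal width was not tested.

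Positions are in hg19, counted from 1. Neither the gene nor the sequence at a position is named, because the reference tables at hand are of another build. The highest-scoring XPD-only peak, on chromosome 17 from 48738423 to 48739960 (1538 bp), had a score of 573 and ranked 265 in the XPD list. Its summit had 17 fragments. The nearest XPB summit was 6451 bp away, in a peak with a score of 209 and 12 fragments that overlapped a different XPD peak. A second XPD summit, also without XPB, lay 3973 bp away. The next in score was on chromosome 12 from 58087570 to 58088991, with a score of 489.8 and 18 fragments. It stood apart, with no XPB summit nearer than 50223 bp and no other XPD summit nearer than 28751 bp.

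The next 2 were the broadest of all 223 and had low summits. One lay on chromosome 3 from 139000320 to 139003453, was 3134 bp wide and had a score of 479.8 with 11 fragments. The other lay on chromosome 17 from 38176058 to 38179050, was 2993 bp wide and had a score of 467.6 with 10 fragments. Their scores were thus among the highest in the set while their summits were among the lower ones. The third broadest, on chromosome 2 from 235933816 to 235936697, combined a width of 2882 bp with 21 fragments and had a score of 378.5.

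The fifth in score lay beside a stronger shared site. On chromosome 1 from 16276175 to 16277729 it had a score of 464.9 and 13 fragments, and 2092 bp from its summit was an XPD summit of 24 fragments in a peak with a score of 593.2. The XPB summit next to it was 2107 bp away, had 25 fragments and belonged to a peak with a score of 542.3, which overlapped an XPD peak. A like arrangement was seen on chromosome 16 from 69762153 to 69763763, with a score of 394.9 and 14 fragments, a peak named after its values were seen. There the neighbouring XPD peak scored 868.1 with its summit 1513 bp away, and the XPB peak scored 955.6 with its summit 1542 bp away. In 10 of the 223 peaks, at any distance, the nearest XPB and the nearest other XPD summit were equally far to within 20 bp. These 10 include the chromosome 1 peak but not the chromosome 16 one, so they do not count this arrangement. Some were remote, as on chromosome 2 from 162136622 to 162138730, with 119897 and 119887 bp.

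The remaining 5 of the 10 highest scores had 14 to 17 fragments and widths between 1200 and 1832 bp. On chromosome 5 they lay from 880493 to 882324 (score 446.4) and from 176753850 to 176755272 (445.7). Chromosome 18 had one from 21164427 to 21165761 (442.6). The last were from 33194931 to 33196130 on chromosome 1 (432.7) and from 43546844 to 43548081 on chromosome 21 (428.2). None of these 5 had an XPB summit within 5 kb, and the distances ran from 7303 bp for the first to 33094 bp for the last.

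The tallest summit was an exception in its height. The peak on chromosome 3 from 112359850 to 112360520 had 46 fragments over only 671 bp, the second narrowest of the set, with a score of 425.6. Its nearest XPB summit lay 35663 bp away and had 22 fragments. The next summits were far lower: 26 fragments from 66123963 to 66125243 on chromosome 5, 25 fragments from 123241552 to 123242349 on chromosome 3, and 24 fragments from 162136622 to 162138730 on chromosome 2. The highest-scoring of those with 22 fragments was on chromosome 5 from 43120495 to 43121745. Of these 5, those on chromosome 5 at 66123963 and on chromosome 2 were also remote, with the nearest XPB summit at 175945 and 119897 bp. The narrowest peak, 418 bp on chromosome 13 from 113832302 to 113832719, had 21 fragments and a score of 342.6. The third narrowest was 677 bp on chromosome 16 from 66967342 to 66968018, with 15 fragments and a score of 316.1.

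The heights and widths of the peaks on both sides of the threshold overlapped. Just inside, the 5 lowest scores ran from 300 to 300.8, with summits of 10 to 17 fragments and widths of 1217 to 2412 bp. Just outside, the 5 XPD-only peaks next below ran from 298.8 to 299.9, with 12 to 16 fragments and widths of 960 to 1474 bp.

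The distance to the nearest XPB summit ranged widely. The median was 12665 bp (9437 to 15571), with an interquartile range of 4660 to 30803 bp. An XPB summit within 2 kb was found for 16 peaks, within 5 kb for 61, within 10 kb for 99 (44.4%, 37.8 to 51.2) and within 100 kb for 211 (94.6%, 90.8 to 97.2). Near misses of the overlap rule were a small part of the set. The gap between the XPD and the closest XPB interval was at most 100 bases in 3 peaks and at most 500 in 15. It was at most 1000 in 21, or 9.42% (5.92 to 14.0). Of the 8708 XPD-only peaks with scores under 300, 8.22% (7.65 to 8.82) had a gap of at most 1000 bases. That share lies inside the interval of the strong ones.

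Shared peaks were set beside them by the nearest XPB summit of a peak that did not overlap. That distance was a median of 7533 bp (6765 to 8513), and 57.4% (54.6 to 60.1) had such a summit within 10 kb. The share was lower in the strong XPD-only peaks, and the intervals did not overlap. Both sets were chosen by XPB overlap, so their distances to XPB are given as a description and not as a test. At scores of 300 to under 350 the shares within 10 kb were 41.3% (33.4 to 49.7) and 55.8% (51.2 to 60.3). The 8708 XPD-only peaks below a score of 300 were farther from XPB, with a median of 16979 bp (16356 to 17683) and 36.5% (35.5 to 37.5) within 10 kb. Within 100 kb the strong XPD-only and shared peaks had similar shares, 94.6% (90.8 to 97.2) and 93.5% (92.0 to 94.8).

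**Figure D4:**
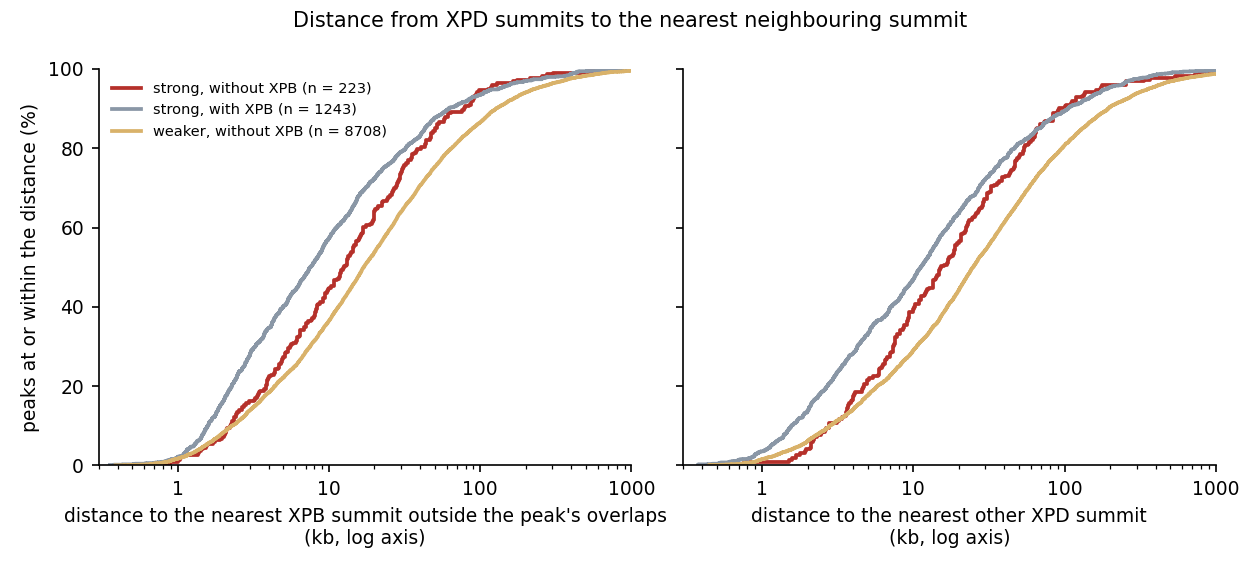
Cumulative percentage of XPD peaks against the distance in kb (log axis) from the summit to the nearest XPB summit of a peak that does not overlap (left) and to the nearest other XPD summit (right), with the axis ending at 1000 kb. At 10 kb the strong peaks without XPB (red, 44.4% and 39.5%) lie between the strong peaks with XPB (grey, 57.4% and 46.9%) and the weaker peaks without XPB (yellow, 36.5% and 29.0%).

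The peaks nearest to XPB had it directly alongside. On chromosome 16 from 15053328 to 15054378, with 22 fragments and a score of 307.0, the XPB summit was 611 bp away and 98 bases separated the intervals. That XPB peak had 18 fragments and no XPD peak over it. On chromosome 1 from 6548901 to 6550566 the XPB summit was 894 bp away, and on chromosome 8 from 145086542 to 145088295 it was 1001 bp away. On chromosome 21 from 9854052 to 9855740 the distance was 1036 bp with 87 bases between the intervals, the smallest gap of the set. On chromosome 3 from 52321774 to 52322979 it was 1048 bp with a gap of 90 bases. In these 5 the absence of XPB rests on a gap of at most 355 bases, in fragments that the protocol cut to lengths of 400 to 700 bp.

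At the other end were peaks far from any XPB summit. The most remote was on chromosome 19 from 24097007 to 24097965, with 16 fragments and a score of 307.2, where the nearest XPB summit was 844598 bp away and the nearest other XPD summit 1552760 bp. Next were chromosome 7 from 81832120 to 81833836 with 517900 bp, and chromosome 4 from 3912011 to 3913549 with 304344 bp. Chromosome 3 from 161699847 to 161701484 had 274823 bp, and chromosome 18 from 12441 to 13471 had 255010 bp. Their summits had 12 to 17 fragments, within the usual range of the set. In all, 8 of the 223 peaks (3.59%, 1.56 to 6.95) had no other summit of either list within 100 kb, as had 52 of 1243 shared peaks (4.18%, 3.14 to 5.45).

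The nearest XPB peaks were ordinary members of the XPB list. Their median score was 194.4 (182.7 to 201.3) and their median height 11 fragments (11 to 12), beside 189.4 and 11 in the whole XPB list. An XPD peak lay over 65 of the 223, 29.1% (23.3 to 35.6), and over 26.6% (25.98 to 27.2) of all XPB peaks. A score of at least 300 was reached by 36, 16.1% (11.6 to 21.6), beside 14.3% (13.8 to 14.8) of all XPB peaks. Of the 36, 9 were within 5 kb of the XPD-only summit. The partners of shared peaks, the XPB peaks with the largest overlap, had a median score of 365.1 (354.3 to 380.1) and 16 fragments. The measures are unlike, because the overlap rule leaves XPD-only peaks with XPB peaks at other sites only. The nearest XPB peaks that did not overlap shared peaks were not scored. Of the 1243 shared peaks, 148 had a partner that scored under 200: 78 (6.28%, 4.99 to 7.77) scored 150 to under 175, and 70 (5.63%, 4.42 to 7.06) scored 175 to under 200. With XPB peaks under 200 left out, the strong XPD-only peaks numbered 361 in place of 223.

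Clustering with other XPD peaks was described next. A further XPD summit lay within 10 kb of 88 strong XPD-only peaks, 39.5% (33.0 to 46.2), of 583 shared peaks, 46.9% (44.1 to 49.7), and of 29.0% (28.0 to 29.95) of the weaker XPD-only peaks. The interval of the strong XPD-only peaks meets that of the shared peaks and lies above that of the weaker ones. Within 2 kb the shares were 4.04% (1.86 to 7.52) of the strong XPD-only and 13.8% (12.0 to 15.9) of the shared peaks. These intervals did not overlap. The weaker XPD-only peaks had 6.13% (5.64 to 6.66), inside the interval of the strong ones, so the low share was not particular to strong peaks. The nearest XPD peak was itself without XPB for 133 of 223, 59.6% (52.9 to 66.1), close to the 61.3% of the whole list. It was so for 627 of 1243 shared peaks, 50.4% (47.6 to 53.3). No other summit of either list lay within 10 kb of 102 strong XPD-only peaks, 45.7% (39.1 to 52.5), and of 448 shared peaks, 36.0% (33.4 to 38.8).

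Another strong XPD summit, with or without XPB, lay within 50 kb of 68 strong XPD-only peaks, 30.5% (24.5 to 37.0), and of 480 shared peaks, 38.6% (35.9 to 41.4), and these intervals meet. The nearest such summit was itself XPD-only for 14 of the 68, 20.6% (11.7 to 32.1), and for 45 of the 480, 9.38% (6.92 to 12.3), beside 12.9% of all strong XPD peaks. With XPD-only summits linked at up to 50 kb, 19 of the 223 formed 8 pairs and 1 group of 3. The group of 3 was on chromosome 3 from 194022448 to 194060518, where scores ran from 324.8 to 423.3 and heights from 10 to 13 fragments, and the span also held 3 XPB summits. The tightest pairs had summits 9371 bp apart on chromosome 3 from 197066397 to 197077275, and 9550 bp apart on chromosome 16 from 57849700 to 57860348. A further pair was on chromosome 3 from 123119978 to 123132211, and another spanned chromosome 16 from 31469938 to 31483487. Both chromosome 16 spans held no XPB summit at all. The 223 peaks fell into 183 windows of 1 Mb, and 152 of these windows held a single one. No linked groups or window counts of shared peaks are given, so these counts have no comparison.

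The strong XPD-only peaks were spread over all 22 autosomes. Chromosome 3 held the most, 39 of 223 (17.5%, 12.7 to 23.1), followed by chromosome 5 with 20, chromosome 1 with 19, chromosome 19 with 17 and chromosome 2 with 16. Chromosome 3 held 11.7% (9.93 to 13.6) of the shared peaks and 11.6% of the whole XPD list. Chromosome X had none among 6 strong XPD peaks, which is too few to read (0 to 45.9%), and chromosome Y had no strong XPD peak.

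Set against the strong XPD peaks of each chromosome, the share without XPB was 18.8% (13.8 to 24.8) of 207 on chromosome 3, and 12.1% (10.5 to 13.8) elsewhere. It was 20% (12.7 to 29.2) of 100 on chromosome 5 and 25% (13.6 to 39.6) of 48 on chromosome 20, against 12.5% outside each of them. The low end was chromosome 7 with 3 of 59, 5.08% (1.06 to 14.1), and chromosome 17 with 11 of 144, 7.64% (3.87 to 13.3). The intervals of chromosomes 3 and 20 lay above the overall 12.9%, and no interval of a chromosome lay wholly below it. These extremes were picked out of 23 chromosomes after their values were seen.

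**Figure D5:**
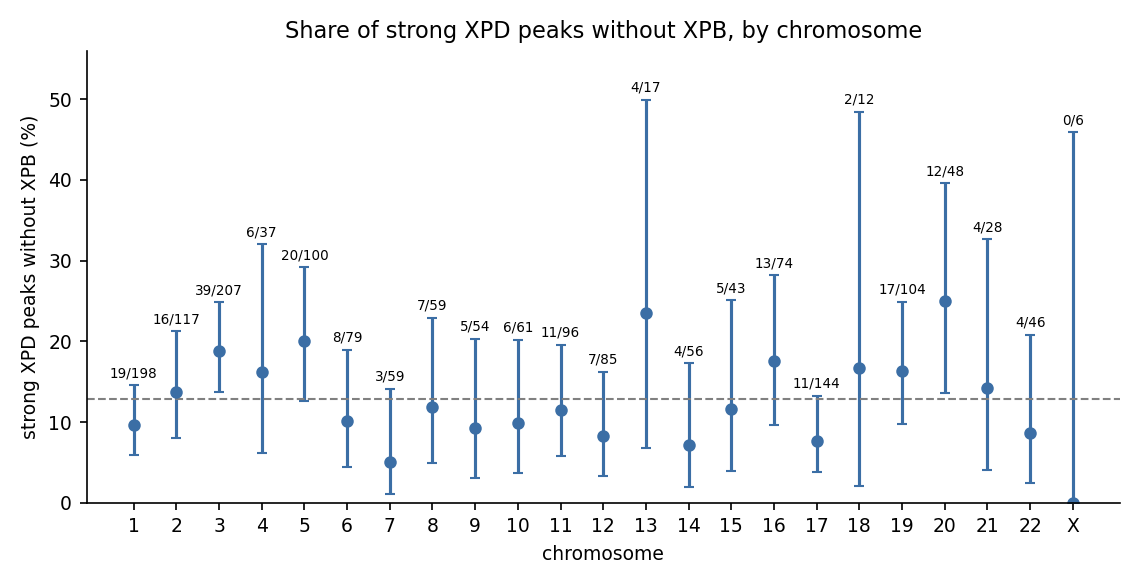
Percentage of strong XPD peaks without XPB on each chromosome with exact 95% intervals; numbers give XPD-only over all strong XPD peaks, and the dashed line marks the overall 12.9%. The points for chromosome 20 (25%) and chromosome 3 (18.8%) have intervals above the line, and all other intervals cross it.

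Neighbourhoods on chromosome 3 were denser than elsewhere. Its 39 strong XPD-only peaks had a median of 13 other XPD summits within 100 kb (4 to 17), and the 184 on other chromosomes had 3 (3 to 4). On chromosome 3 they were a median of 5162 bp (3958 to 9354) from an XPB summit, compared with 14367 bp (11842 to 19152) elsewhere. Their median width was 1664 bp (1506 to 1866), compared with 1403.5 bp (1331 to 1492), while the height was 14 in both. Shared peaks showed the same contrast, with widths of 1600 bp (1516 to 1726) on chromosome 3 and 1267 bp (1229 to 1309) elsewhere. On chromosome 3 alone, 61.5% (44.6 to 76.6) of the strong XPD-only and 64.8% (56.5 to 72.6) of the shared peaks had another XPD summit within 10 kb. Within 2 kb these shares were 10.3% (2.87 to 24.2) and 21.4% (15.01 to 29.0), and within 50 kb 76.9% (60.7 to 88.9) and 91.7% (86.0 to 95.7). On the other chromosomes the shares within 10 kb were 34.8% (27.9 to 42.1) and 44.5% (41.6 to 47.5), and those intervals meet. For an XPB summit of a peak that did not overlap, the shares within 10 kb were 69.2% (52.4 to 83.0) and 71.7% (63.7 to 78.9) on chromosome 3, and 39.1% (32.0 to 46.6) and 55.5% (52.5 to 58.4) elsewhere. Within 2 kb on chromosome 3 they were 7.69% (1.62 to 20.9) and 19.3% (13.2 to 26.7). With 39 XPD-only peaks the intervals on chromosome 3 are wide, and whether the gap between the sets differs from that elsewhere was not tested.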

How the data were processed

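Reads of the XPB and XPD ChIP and the input of HT1080 cells were processed by the authors with Bowtie 0.12.7 and MACS 1.4 on hg19, per the submitters' processing notes. The control used and other caller settings are not given in the sources used here. Each ChIP had its own deposited list: peak intervals with a score (-10 times the log10 p-value by the usual MACS layout, 150 to 3100) and summits with a signal, the fragment height. Depth per library is unknown. Intervals, overlaps of at least 1 bp, gaps and summit distances were computed with scipy 1.17.1, pandas 2.3.3 and numpy 2.4.6 under Python 3.11.15, and the overlap functions were tested on simulated lists; plots used matplotlib 3.10.9. Peaks sharing a library are not replicates. The set, the comparisons and the bins were chosen with earlier results of these data known. Named peaks were the 10 highest scores, the 5 tallest, the 3 widest and narrowest, the 5 nearest to and farthest from XPB, the 5 on either side of 300, and the 5 largest or tightest groups. Alternatives changed the score minimum, the overlap rule, the XPB list, the chromosomes and the comparison peaks. Sequences and gene names were not analysed here, since the tables at hand are of another build.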

Additional observations from a re-analysis of the deposited data

How the results depend on the processing

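Of 60 alternatives, 38 stayed within the interval of the reported value (for the number of peaks, within 1.5 times) and 22 moved outside it. A direction could reverse only for the differences in median width and height, and 0 of their alternatives did so. The number of strong XPD-only peaks (223, 12.9%) followed its definition. It was 671 (23.5%) with scores of at least 250, 73 (6.62%) with at least 350, 618 (35.7%) when only an XPB summit within 250 bp counted as XPB, and 361 (20.9%) with XPB peaks of at least 200. Their median width was 1258 bp at scores of at least 250, 1546 bp at 350 and 1567 bp under the summit rule, where the height was 15 fragments. The median distance to XPB was 8247 bp at scores of at least 350, 844 bp under the summit rule and 20636 bp with XPB peaks of at least 200. Under the summit rule 79.9% had an XPB and 52.3% another XPD summit within 10 kb; the first was 33.0% with XPB peaks of at least 200, and the second 49.3% at scores of at least 350. The difference in median width (136 bp) was 343 bp under the summit rule. Its wide interval, from the ends of both median intervals, included 0 in 3 settings. The difference was 31.5 bp (-17 to 91) at scores of at least 250 and 158 bp (-28 to 381) at 350. Against overlapping peaks of any score of at least 300 it was 88 bp (-18 to 211). The difference in median height (-3 fragments) was -2 with matched score bins, and -2 at scores of 300 to under 350, a setting chosen after seeing the data. Leaving out chromosome 3 or requiring a gap of over 1000 bp moved none of these values outside its interval. No paired analysis was possible because each antibody had 1 library, and leaving out replicates was not possible for the same reason. Depth is unknown and the XPB list stops at a score of 150, so a site missing from it is unlisted, not shown to be unbound.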

Other observations

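The following values were picked after they were seen. Among windows of 1 Mb, 4 held 3 or more strong XPD-only peaks, 17 of the 223 in all. They are the extremes of 183 windows with at least 1 such peak. Over the whole list 12.9% of 1730 strong XPD peaks were XPD-only. How many windows would reach 3 at that share was not tested. The window on chromosome 3 from 194000001 to 195000000 held 6 of them among 16 strong XPD peaks, in a stretch with 94 XPD and 90 XPB peaks. The window from 123000001 to 124000000 on the same chromosome held 5 among 8 strong XPD peaks, with 48 peaks in each list. On chromosome 5 from 176000001 to 177000000 there were 3 among 4 strong XPD peaks, and on chromosome 16 from 57000001 to 58000000 there were 3 among 5. The last 2 windows held 22 and 28 XPB peaks.

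Among the 36 strong XPD-only peaks whose nearest XPB peak scored at least 300, that XPB peak overlapped an XPD peak in 24 cases and none in 12. The share of all XPB peaks scoring at least 300 that overlap an XPD peak is not given here. The 24 cases therefore cannot be read as a trait of these neighbours. In 2 of the 12 cases without an XPD overlap the summits were within 5 kb of each other.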
